A study of Mus musculus with 24 samples.

Results

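The heat shock protein and chaperone genes were described in oculomotor and spinal motor neurons that were grown from mouse embryonic stem cells (mESCs) and sorted by a GFP reporter, and in the GFP-negative cells of the same cultures. Members were chosen by symbol (the Hspa, Hspb, Hspd, Hspe, Hsph and Hsp90 genes, Dnaja, Dnajb and Dnajc genes with a number, the CCT chaperonin subunits and Bag1 to Bag6), and 85 of the 22889 genes in the table matched. They comprised 11 HSP70 genes, 3 HSP110 genes, 3 HSP90 genes, 42 DNAJ genes (4 Dnaja, 12 Dnajb and 26 Dnajc), 8 CCT genes, 6 Bag genes, 8 small heat shock genes and the mitochondrial chaperonin pair *Hspd1* and *Hspe1*. A further 2 matched by name alone (*Hspbp1* and *Hspbap1*, whose products bind chaperones), and *Hspb11* carries the family name although its product works in cilia. *Cct6a* was not analysed here.

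RNA was sequenced from 24 samples in 4 groups of 6, each a pool of FACS-sorted cells amplified from poly(A) RNA with SMART-seq2. Oculomotor cultures came from an Islet1-GFP/NesEPhox2a mESC line, in which *Phox2a* is overexpressed under the nestin enhancer, and were patterned as embryoid bodies with 250 nM of the Smoothened agonist SAG and 100 ng/ml Fgf8 for 5 days. Spinal cultures came from an Hb9-GFP mESC line and received 500 nM SAG and 100 nM retinoic acid for 5 days. GFP-positive and GFP-negative fractions were collected from both, no group carried a disease mutation or was exposed to a stressor, and the cell line, the reporter and the patterning factors changed together between the cultures, so their parts in a difference between cultures cannot be told apart. The reporters also mark different cells, since Islet1 is not restricted to motor neurons, and the labels do not say whether replicates came from separate cultures, so p values measure the spread between these samples.

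Values are RPKM (reads per kilobase of transcript, scaled to the reads mapped in the library), divided here by a scaling factor per library and compared as log2(scaled RPKM + 1), on which differences of genes under about 1 RPKM are compressed. Depth estimated from the RPKM steps ran from 752529 to 7675428 reads, with a median of 2833426.5 in replicates 1 to 4 and 6979753 in replicates 5 and 6. In the spinal GFP-negative replicate 2, 3 gene models took 68.8% of the RPKM. The summed level of 8 neuron markers, among them *Tubb3*, was from 1173 to 2215 (median 1642) in oculomotor GFP-positive and from 28.8 to 55.8 (median 39.6) in oculomotor GFP-negative samples. It was from 70.8 to 1626 (median 980.1) in spinal GFP-positive and from 43.9 to 284 (median 73.6) in spinal GFP-negative samples. The lowest spinal GFP-positive sum belonged to the library labelled spinal GFP-positive replicate 4, which lay inside the GFP-negative range and also had the lowest motor neuron marker sum of its group, 47.8 against 67.0 in its own GFP-negative fraction. Fractions with the same replicate number are taken here as 1 culture, which the labels do not state. The main results of the comparisons that use spinal culture 4 are given with and without it.

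Chaperones bind unfolded or partly folded proteins and let them fold, move between compartments or be degraded. HSP70 proteins hold and release such chains in an ATP-driven cycle, DNAJ proteins deliver the chains and start ATP hydrolysis, and HSP110 and BAG proteins exchange the nucleotide. HSP90 proteins finish the folding of kinases and receptors, the CCT ring folds actin and tubulin, HSPD1 with its cap HSPE1 folds proteins of the mitochondrial matrix, and small heat shock proteins hold unfolded proteins without ATP. Heat shock factors switch on many cytosolic and mitochondrial members through heat shock elements in their promoters, and the unfolded protein response of the endoplasmic reticulum (ER) acts on the luminal members through ER stress elements. Motor neurons are known for a high threshold of the heat shock response, and variants of *Hspb1*, *Hspb3*, *Hspb8*, *Dnajb2* and *Bag3* orthologs are tied to inherited motor neuropathies.

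Some members hold a heat shock element or an ER stress element in their promoter, and none in the table held both. In the RefSeq windows of 250 bases before and 50 bases after each gene start (GRCm38.p6), the heat shock element (the letters GAA, TTC and GAA with 2 free bases between units, on either strand) was in 0.6027% of 32851 promoters and in 4 of the 70 members with an entry (*Hspe1*, *Hspd1*, *Dnajb6* and *Hsph1*). The ER stress element (CCAAT, 9 free bases and CCACG, on either strand) was in 0.1187% of promoters and in 3 members (*Hspa5*, *Hsp90b1* and *Dnajc3*). *Hspe1* and *Hspd1* lie head to head with RefSeq starts 216 bases apart, and 2 overlapping heat shock elements lie between them. The sequences are shown because 5 of these 7 genes passed the test between the fractions of the oculomotor cultures (*Hspe1*, *Hspd1*, *Hsph1*, *Hsp90b1* and *Dnajc3*), and capitals mark the matched letters on the strand of the gene named:
Hspe1 and Hspd1, chr1:55088054-55088081, plus strand: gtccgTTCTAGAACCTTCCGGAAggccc
Dnajb6, chr5:29735847-29735869, plus strand: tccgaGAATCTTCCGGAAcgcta
Hspa5, chr2:34772020-34772048, plus strand: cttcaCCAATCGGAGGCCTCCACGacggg
Dnajc3, chr14:118937822-118937850, plus strand: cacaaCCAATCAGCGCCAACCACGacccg
Hsp90b1, chr10:86705528-86705556, minus strand: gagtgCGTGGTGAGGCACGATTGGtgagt
Hsp90b1, chr10:86705633-86705661, minus strand: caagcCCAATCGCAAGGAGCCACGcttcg
The merged element of the chaperonin pair lay 89 to 72 bases before the *Hspe1* start. *Hsp90b1* held the element at 2 places, 107 to 89 and 212 to 194 bases before its start. The *Hsph1* match lay 37 to 49 bases after its start and is not printed. Only exact letters within these windows were searched, and 15 members had no entry, so a member without a match may still hold an element. A match of letters is a description and not a site of binding, and binding was not measured in these samples.

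Most of the chaperone genes were expressed in all 4 groups. Per unit of length, 12 members had a mean above 100 scaled RPKM over the 24 samples, 45 were above 10, and 62 were detected in every sample. The 3 most abundant were *Hsp90aa1* and *Hsp90ab1*, which encode the cytosolic HSP90 proteins, and *Hspa8*, the constitutive cytosolic HSP70, and these 3 held 20.5% to 68.8% (median 46.7%) of the summed member RPKM of a sample. They were followed by *Hspe1*, *Cct5*, *Cct2*, *Cct8*, *Hsp90b1*, *Hspa5* and *Bag1*, and the 10 together held 61.5% to 82.5% (median 70.1%). Within a group the ranges of neighbours in this order overlapped, except that *Hspa8* lay above *Hspe1* in oculomotor GFP-positive samples *Hspe1* above *Cct5* in both GFP-negative groups and *Hspa5*, against the overall order, above *Hsp90b1* in oculomotor GFP-positive samples.

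**Figure D1:**
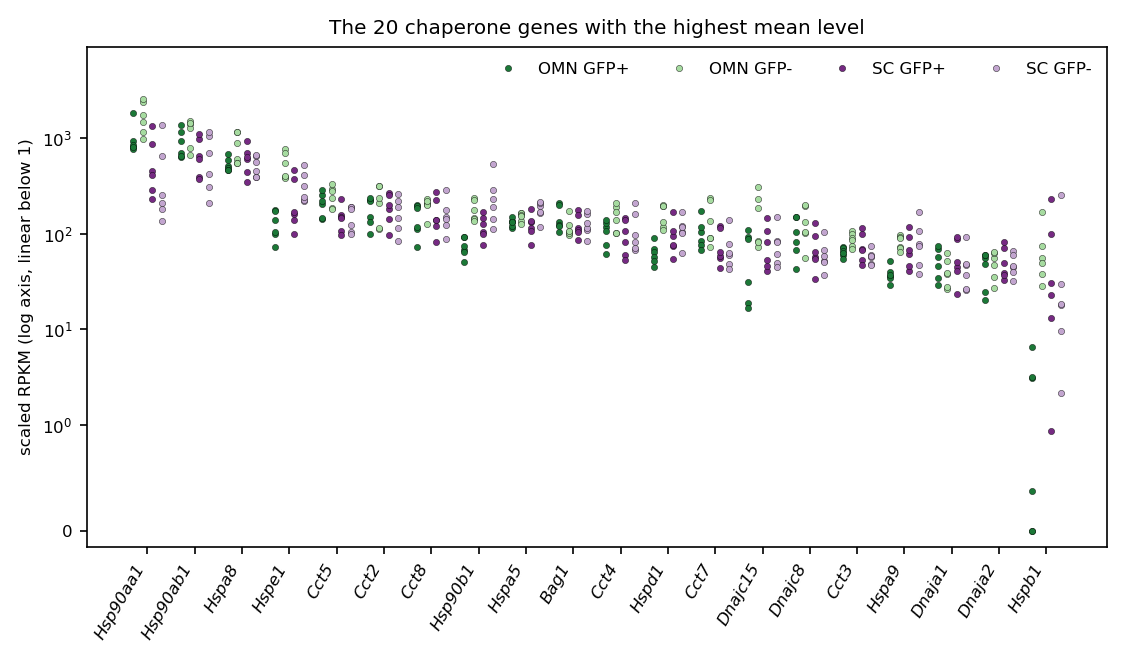
Levels (scaled RPKM, log axis that is linear below 1) of the 20 chaperone genes with the highest mean, 1 point per sample and 6 samples in each of the 4 groups (OMN, oculomotor; SC, spinal; + and -, GFP-positive and GFP-negative). *Hsp90aa1*, *Hsp90ab1* and *Hspa8* hold the top places by overall mean, and *Hspb1* spreads most, from 0 in 2 oculomotor GFP-positive samples to 254 in a spinal GFP-negative sample.

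The stress-inducible HSP70 genes were close to silent. *Hspa1a* reached at most 1.62 and *Hspa1b* at most 3.68 scaled RPKM in any sample, against at least 345 for *Hspa8*. The 2 inducible genes are near-identical copies, so reads may have been split between them. Members at 0 in all 6 samples of a group were *Cct8l1* and *Hspb9* in oculomotor GFP-positive, *Hspb3* in oculomotor GFP-negative and *Hspa1l* and *Hspb7* in spinal GFP-negative samples. The spread within groups was smallest, relative to genes of like level, for *Hspa5*, the ER HSP70 known as BiP (SD 0.28 on the log2 scale), and for *Cct3* (0.30). It was largest among the members for *Hspb1* (1.76) and for the testis-enriched HSP70 *Hspa2* (1.57).

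The comparison of fractions within the oculomotor cultures asks how Islet1-GFP-positive cells, motor neurons among them, differ from the remaining cells that grew beside them. In this comparison 13 members passed the test, 11 lower and 2 higher in the GFP-positive fraction. The lower genes encode the mitochondrial chaperonins, the mitochondrial HSP70, 2 HSP110 exchange factors, the ribosome-associated HSP70 *Hspa14*, 2 ER chaperones and 3 small heat shock proteins, and the higher ones are *Hspa12a* and *Hspb3*. Of all genes tested with limma (adjusted p under 0.05), 7.78% were called, 3.79% lower and 3.99% higher, against 13 of 85 members. Members are more abundant than most genes, and among genes with a mean above 10 scaled RPKM, 7.72% of all 4287 and 9 of 45 members were called lower, while 5.64% of all and no member were called higher. The median log2 difference was -0.12 over the members and -0.01 over all genes. Without scaling of the deposited RPKM, the calls over all genes shifted from 884 higher and 841 lower to 845 higher and 519 lower (6.15% of genes), and 9 members were called, 2 higher and 7 lower, with *Hspd1* (adjusted p = 0.053), *Hspa9*, *Hspa14* and *Hspb8* falling short. Fractions that share a replicate number were treated as pairs of 1 culture, from their correlation and not from the labels. With the pair as a block, 23 members were called (3 higher, 20 lower, the 13 among them). Over all genes the block called 18.4%, 8.25% higher and 10.1% lower. In bulk samples, fewer cells of a type and less RNA per cell cannot be told apart.

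**Figure D2:**
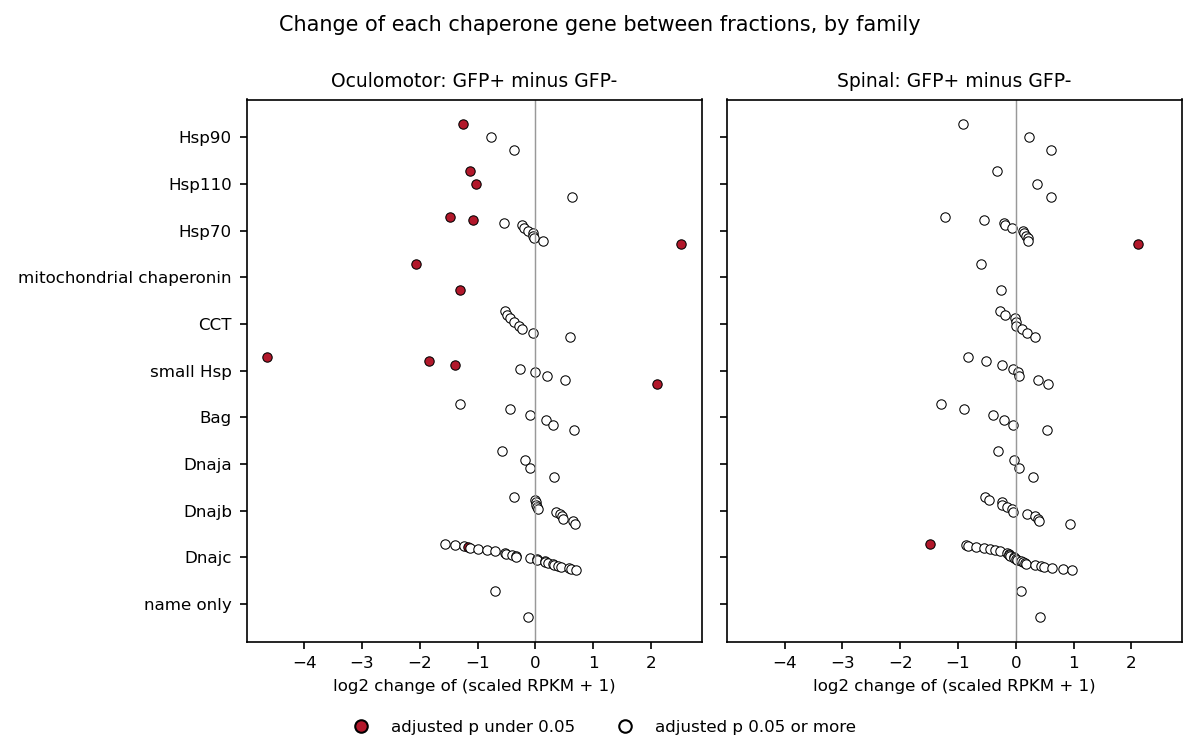
Difference of each of the 85 chaperone genes between GFP-positive and GFP-negative fractions (log2 of scaled RPKM + 1), by family, for the oculomotor (left) and spinal (right) cultures, with heights within a family row set only to part the points and red points at an adjusted p under 0.05. On the left 11 red points lie below 0 and 2 above it, and on the right 1 lies on each side.

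Both mitochondrial chaperonin genes were lower in the oculomotor GFP-positive fraction. *Hspe1*, the cap of the folding chamber (chr1:55088132-55091307, plus strand), ran from 73.1 to 175 (median 122) in GFP-positive and from 385 to 761 (median 472) scaled RPKM in GFP-negative samples. The groups did not overlap, the GFP-negative mean was 4.17 times the GFP-positive one, and the log2 difference was -2.06 ± 0.37 (SE, n = 6 per group, limma, adjusted p = 0.000768). *Hspd1*, the chamber itself (chr1:55077835-55088243, minus strand), ran from 45.2 to 89.5 (median 60.4) and from 110.1 to 201 (median 163). These groups did not overlap either, with a log2 difference of -1.31 ± 0.28 (adjusted p = 0.0039). The mitochondrial HSP70 *Hspa9*, which pulls proteins through the inner membrane and hands them to the chaperonin, ran from 28.9 to 51.6 (median 36.4) and from 64.7 to 96.6 (median 81.4). It was lower without overlap (-1.09 ± 0.31, adjusted p = 0.0292), but the call was lost in 7 of the 12 fits that each left out 1 library (GFP-positive replicate 2, 3, 4 or 6 or GFP-negative replicate 1, 2 or 3), with the adjusted p at most 0.0699. Among the 8 members that work in mitochondria, these 3 were called. *Dnajc15*, a co-chaperone of protein import, ran from 16.8 to 109 (median 59.5) and from 73.1 to 306 (median 134) with an adjusted p of 0.0517, and 0.000158 with the pair block. Named pseudogenes (6 for *Hspe1*, 5 for *Hspd1* and 1 for *Hspa9*) and 112 bases of exon shared by *Hspe1* and *Hspd1* on opposite strands could take or lend reads, since the library kit does not mark strand.

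Cytosolic HSP70 partners were lower as well. *Hspa4*, an HSP110 exchange factor, ran from 23.2 to 32.1 (median 25.1) in GFP-positive and from 48.5 to 72.3 (median 59.7) in GFP-negative samples, with the groups apart and a log2 difference of -1.13 ± 0.24 (adjusted p = 0.00455). *Hsph1*, a stress-inducible HSP110, ran from 4.28 to 9.85 (median 6.27) and from 8.86 to 17.96 (median 15.2). The ranges touched, GFP-positive replicate 4 lying above GFP-negative replicate 1, and the difference was -1.03 ± 0.26 (adjusted p = 0.0133). *Hspa14*, an HSP70 of the ribosome, ran from 2.84 to 20.6 (median 11.8) and from 14.9 to 56.7 (median 29.9). Its groups overlapped, with a difference of -1.48 ± 0.46 (adjusted p = 0.0463) that was lost in 7 of 12 fits without 1 library (GFP-positive replicate 2, 3 or 4 or GFP-negative replicate 1, 2, 5 or 6, adjusted p at most 0.121). The third HSP110, *Hspa4l*, pointed the other way with a median of 5.14 against 3.00 (adjusted p = 0.26). The main cytosolic HSP70 *Hspa8* had medians of 502 and 743 (log2 difference -0.55, 95% confidence interval -1.20 to 0.10), and the inducible *Hspa1a* and *Hspa1b* had adjusted p values of 1 and 0.898.

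In the ER, the luminal HSP90 gene and a BiP co-chaperone gene were lower. *Hsp90b1*, the luminal HSP90 known as GRP94, ran from 50.7 to 92.1 (median 71.2) in GFP-positive and from 135 to 234 (median 161) in GFP-negative samples without overlap (-1.24 ± 0.31, adjusted p = 0.0132). *Dnajc3*, a luminal co-chaperone of BiP that also restrains the kinase PERK, ran from 5.24 to 7.68 (median 5.81) and from 10.5 to 18.9 (median 16.3), again without overlap (-1.16 ± 0.27, adjusted p = 0.00928). BiP itself, *Hspa5*, ran from 116 to 150.5 (median 133) and from 127 to 166 (median 156), overlapping, with an interval of -0.65 to 0.25 around its log2 difference of -0.20 (adjusted p = 0.749). The other 5 members of the ER (*Hspa13*, *Dnajb9*, *Dnajb11*, *Dnajc1* and *Dnajc10*) did not pass the test. All 3 of the genes with ER stress elements are luminal, and 2 of them were called. Over both elements, 5 of 7 members with a match were called lower (*Hspe1*, *Hspd1*, *Hsph1*, *Hsp90b1* and *Dnajc3*). These were among the 9 called lower of the 70 with a promoter entry. *Hspe1* and *Hspd1* share 1 matched stretch and do not count as separate cases. The part of the elements in these differences was not tested.

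3 small heat shock genes were lower, *Hspb1* with the widest difference of the 13 called members. *Hspb1*, which encodes HSP27, a chaperone of actin and intermediate filaments (chr5:135887919-135889563, plus strand), ran from 0 to 6.5 (median 1.71) in oculomotor GFP-positive and from 28.6 to 167 (median 52.9) in GFP-negative samples. It was at 0 in GFP-positive replicates 3 and 4, the groups were far apart, the GFP-negative mean was 31.5 times the GFP-positive one (52.1 times without GFP-positive replicate 1), and the log2 difference was -4.64 ± 0.95 (adjusted p = 0.00291). *Hspb8*, which acts with BAG3 in the clearance of misfolded proteins, ran from 0 to 7.09 (median 1.45) and from 3.9 to 21.2 (median 7.08). Here GFP-positive replicate 3 lay within the GFP-negative range, and the difference of -1.84 ± 0.56 (adjusted p = 0.0454) was lost in 9 of 12 fits without 1 library, holding without GFP-positive replicate 3 and GFP-negative replicates 5 and 6 (adjusted p at most 0.117). *Hspb2*, a small heat shock gene known from muscle, was at 0 in 5 GFP-positive samples and ran from 0.823 to 3.39 (median 1.67) in GFP-negative ones (-1.39 ± 0.43, adjusted p = 0.0456, lost in 11 of 12 such fits, all but that without GFP-negative replicate 4, with p at most 0.103). Its exons overlap those of *Cryab*, another small heat shock gene, by 252 bases on the opposite strand, and *Cryab* itself was at 0 to 0.71 in GFP-positive and 0.464 to 11.5 in GFP-negative samples, so reads of the 2 genes cannot be told apart there.

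*Hspb3* went the other way. This intronless small heat shock gene (chr13:113662896-113663676, minus strand, 1 exon) was detected in 5 of 6 oculomotor GFP-positive samples with 4, 13, 7, 0, 32 and 85 reads in replicates 1 to 6, and with 0 reads in all 6 GFP-negative ones. In scaled RPKM it ran from 0 to 19.9 (median 3.22) against 0, with the highest values in replicates 5 and 6 and replicate 4 at 0. Against a floor of 3 reads in each GFP-negative library, the GFP-positive mean of 5.85 ± 7.39 (SD, n = 6) was at least 4.51-fold higher. Replicate 6 carried much of that mean, and without it the bound was 2.35-fold. The limma adjusted p was 0.00401, and 0.0844 in replicates 1 to 4 alone. Spinal samples held 1 read in GFP-positive and 7 reads in GFP-negative libraries, in total. These counts cover counting error only.

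*Hspa12a*, a distant HSP70 relative expressed in the brain (chr19:58795750-58943654, minus strand), rose in the GFP-positive fraction. It ran from 6.45 to 18.8 (median 11.6) in oculomotor GFP-positive and from 0.599 to 1.96 (median 1.15) in GFP-negative samples. The groups did not overlap, the ratio of means was 10.3, and the log2 difference was 2.52 ± 0.48 (adjusted p = 0.00166). No other member had GFP-positive samples all above the GFP-negative ones. In all, 9 members had groups that did not overlap, 1 higher and 8 lower, against 7.5% of all genes.

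**Figure D3:**
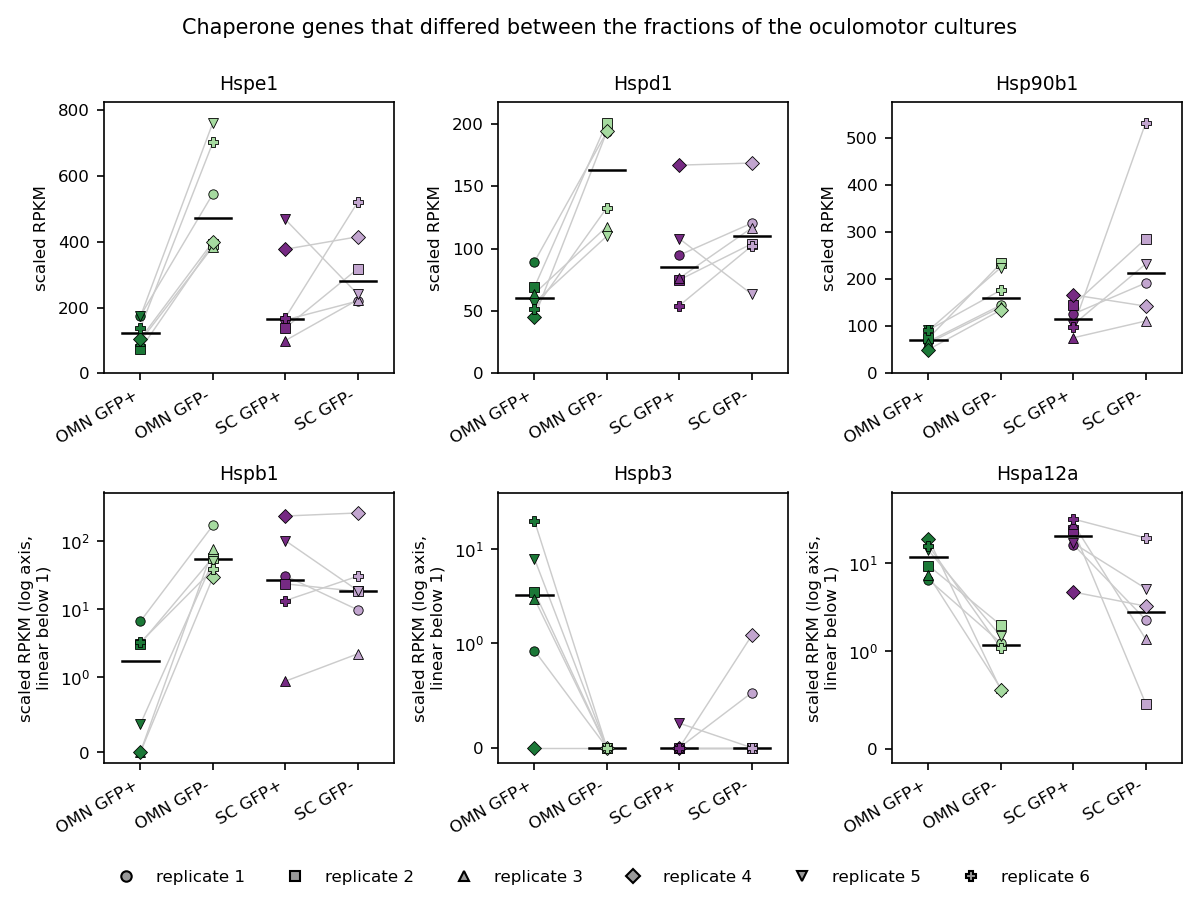
Scaled RPKM of 6 chaperone genes in the 4 groups, 1 symbol per replicate number, with grey lines joining the 2 fractions of a culture and bars at the group medians. The upper axes are linear and the lower ones are log axes, linear below 1. In the oculomotor cultures *Hspe1*, *Hspd1*, *Hsp90b1* and *Hspb1* are lower in all 6 GFP-positive samples, *Hspa12a* is higher in all 6 and *Hspb3* in 5.

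The signs of these differences in single culture pairs are a description, since the same libraries chose the 13 called members. Of the 13, 12 had the same sign in 6 of 6 pairs and *Hspb3* in 5 of 6. All 13 also kept their sign when either replicate set (1 to 4, or 5 and 6) was taken alone. For the members whose groups did not overlap (8 lower and 1 higher), the lack of overlap already fixed these signs. The pairs are therefore no separate test of the calls. Over the 85 members, 27 were lower and 4 higher in all 6 pairs, against 13.2% and 10.7% of all genes. With replicates 1 to 4 alone, *Hspe1*, *Hspd1*, *Hspa4* and *Hspa12a* passed the test, against 2.56% of all genes. The block on pairs added *Bag3*, *Dnajc2*, *Dnajc9*, *Dnajc11*, *Dnajc15*, *Dnajc19*, *Dnajc21*, *Dnajc24* and *Hspbap1* as lower and *Bag6*, which guards tail-anchored proteins, as higher. The largest of these was *Dnajc15* (-1.56 ± 0.20, adjusted p = 0.000158), followed by the histone chaperone *Dnajc9* (-1.39 ± 0.28, adjusted p = 0.0032). *Bag3*, the exchange factor that works with HSPB8, had a block estimate of -1.30 ± 0.34 (adjusted p = 0.016).

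By function, 5 of 13 stress-inducible members were called lower between the oculomotor fractions (*Hspb1*, *Hspb8*, *Hsph1*, *Hspd1* and *Hspe1*). *Hspd1* and *Hspe1* are the mitochondrial pair given above, and the median log2 difference was -0.78 over the 13. Over all genes 3.79% were called lower and 3.99% higher. Among genes with a mean above 10 scaled RPKM these shares were 7.72% and 5.64%. Of the 5 members tied to inherited motor neuropathy, *Hspb1* and *Hspb8* were called lower, *Hspb3* higher and *Dnajb2* and *Bag3* did not pass. Neither the 4 members of synaptic vesicle or clathrin cycles nor the 8 testis-enriched members tested held a call. None of the 8 CCT, 6 Bag, 4 Dnaja and 12 Dnajb genes passed the test, and *Dnajc3* was the 1 of 26 Dnajc genes that did. The CCT subunits, which fold tubulin and actin, had 7 of 8 estimates below 0 with a median of -0.32, and the summed level of *Cct2*, *Cct3*, *Cct4*, *Cct5*, *Cct7* and *Cct8* was from 565 to 969 (median 849.9) in GFP-positive and from 867 to 1263 (median 1007) in GFP-negative samples. The Dnajb genes leaned the other way, with 10 of 12 estimates above 0 and a median of 0.20. *Dnajb1*, the main co-chaperone of HSP70 after heat shock, was level at 16.1 ± 2.57 and 16.1 ± 3.19 (mean ± SD, n = 6), with a log2 interval of -0.44 to 0.47. *Dnajb2*, a neuronal DNAJ gene, had medians of 6.45 and 2.14 (adjusted p = 0.496). *Dnajc5*, the cysteine string protein of synaptic vesicles, had medians of 22.1 and 14.6 (adjusted p = 0.388), and the clathrin uncoating factor *Dnajc6* of 1.03 and 0.329 (adjusted p = 0.362).

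The cell types of the fractions changed along with the chaperones. In the oculomotor cultures 8 of 8 neuron markers and 6 of 8 motor neuron markers were higher, and 5 of 6 cell cycle and 5 of 5 pluripotency markers lower, in the GFP-positive fraction. The pluripotency sum was from 0.285 to 217 (median 54.1) in GFP-positive and from 629.7 to 13724 (median 6528) in GFP-negative samples, and most of it was *Dppa5a*, which ran from 549 to 13632 (median 6299.8) in the latter. *Nanog* ran from 0.285 to 2.67 (median 1.18) and from 15.3 to 76.1 (median 41.7). The cell cycle sum was from 56.9 to 245 (median 89.9) and from 224 to 638 (median 425). Of 8 neural progenitor markers, *Sox2* was called lower. Glial marker sums were low, from 3.22 to 6.06 (median 4.23) and from 1.97 to 3.99 (median 2.07), with *Gfap* at 0 in 6 of 6 GFP-negative samples and 1 of the 5 markers (*Mbp*) called higher, and endoderm markers summed from 0 to 1.2 (median 0.211) and from 5.46 to 18.1 (median 10.5) with none of the 5 called. Of 8 immediate early genes, which respond to dissociation, *Dusp1* alone was called (log2 difference 1.05). The part of these cell types in the chaperone differences was not tested.

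**Figure D4:**
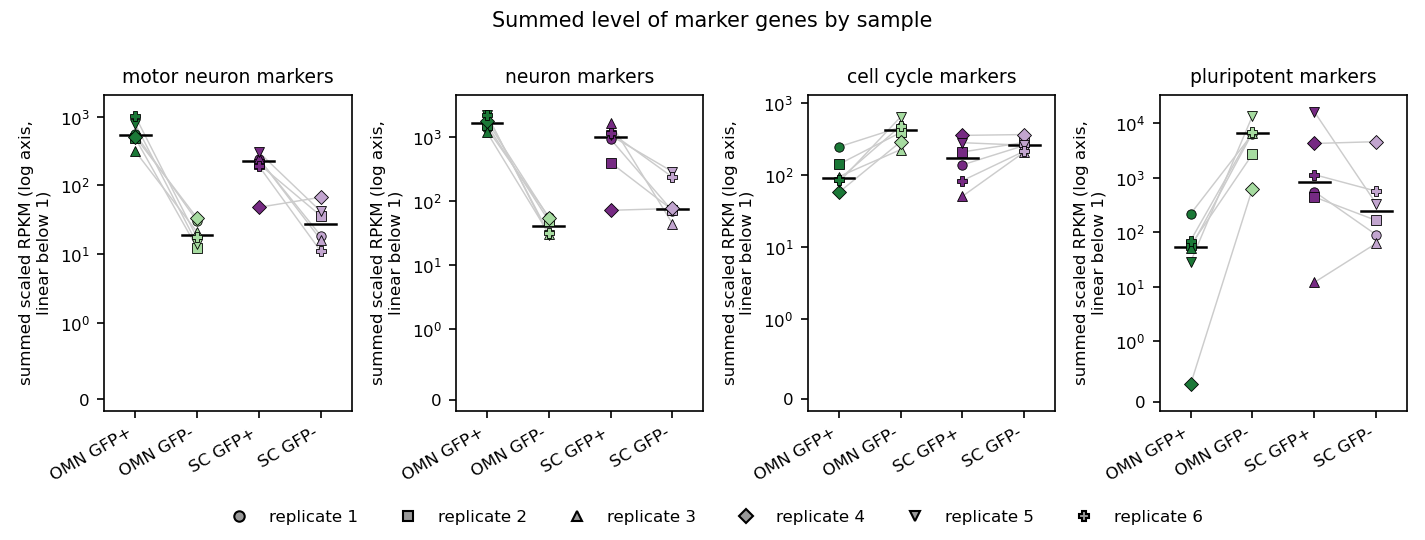
Summed scaled RPKM of motor neuron (8 genes), neuron (8), cell cycle (6) and pluripotency (5) markers per sample, on log axes that are linear below 1, with grey lines joining the 2 fractions of a culture and bars at the group medians. In the oculomotor cultures the 2 fractions are apart for the motor neuron, neuron and pluripotency markers, while the library labelled spinal GFP-positive replicate 4 sits with the GFP-negative samples for the neuron markers.

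In the spinal cultures 2 of 85 members differed between the fractions, close to the 1.45% of all genes that were called (0.464% higher, 0.987% lower). *Hspa12a* ran from 4.66 to 31.4 (median 20.2) in GFP-positive and from 0.459 to 19.1 (median 2.74) in GFP-negative samples. It was higher in all 6 pairs, although GFP-negative replicate 6 lay among the GFP-positive values and the GFP-positive replicate 4 was the lowest of its group, and the log2 difference was 2.12 ± 0.48 (adjusted p = 0.0233). *Dnajc22*, a DNAJ gene, ran from 0 to 0.693 (median 0.166) and from 0.666 to 7.17 (median 1.96). It was lower in all 6 pairs, with ranges that just touched (-1.49 ± 0.35, adjusted p = 0.0301). Both calls depended on single libraries, since *Hspa12a* lost its call in 5 of 12 fits without 1 library (GFP-positive replicate 3 or 6 or GFP-negative replicate 1, 2 or 3, adjusted p at most 0.0674). *Dnajc22* lost it in 7 of 12 (GFP-positive replicate 1, 2, 3, 5 or 6 or GFP-negative replicate 2 or 6, at most 0.0769), and a fit of the 2 spinal groups alone gave adjusted p values of 0.293 and 0.301. No member had groups that did not overlap, against 0.442% of all genes, and the median log2 difference was -0.02 over the members and -0.03 over all genes.

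Leaving out spinal culture 4, a choice made after seeing the data, raised the *Hspa12a* difference to 2.46 ± 0.49 (adjusted p = 0.00442) and that of *Dnajc22* to -1.78 ± 0.37 (adjusted p = 0.00608). With 3.35% of all genes called, *Dnajc3* then passed as well (-1.12 ± 0.28, adjusted p = 0.0223, against 0.149 with all cultures). With the block on pairs the same 2 members were called, against 3.72% of all genes. With that block and culture 4 left out, 7 members were called against 6.67% of all genes, adding *Bag3*, *Dnajc1* and the ER chaperones *Hsp90b1* (-1.14 ± 0.23, adjusted p = 0.0112) and *Hspa5* (-0.69 ± 0.19, adjusted p = 0.0443) as lower. With all spinal cultures, *Hsp90b1* ran from 75.8 to 167 (median 115) in GFP-positive and from 111 to 534 (median 213) in GFP-negative samples, overlapping (adjusted p = 0.189). *Hspa5* ran from 75.8 to 181 (median 124) and from 119 to 216 (median 183) (adjusted p = 0.308). Endoderm markers moved beside the spinal fractions, with 4 of 5 called lower in GFP-positive samples and sums from 0.649 to 8.74 (median 0.993) and from 3.27 to 391 (median 65.0), and their part was not tested. Pluripotency markers did not pass in the spinal cultures (0 of 5), and the GFP-positive replicates 4 and 5 had sums of 4268 and 16382.

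With all 6 spinal cultures and no block, none of the 11 members called lower in the oculomotor GFP-positive fraction passed between the spinal fractions. *Hspe1* ran from 99.7 to 467 (median 166) in spinal GFP-positive and from 219.6 to 520.0 (median 279) in spinal GFP-negative samples, with overlap (-0.60 ± 0.37, adjusted p = 0.588). GFP-positive replicates 4 and 5, at 377 and 467, made the overlap. The other GFP-positive values of *Hspe1* were at most 169, below every GFP-negative value. Replicates 4 and 5 are also the libraries whose pluripotency sums are given above, and the part of those cells was not tested. *Hspd1* ran from 54.4 to 167 (median 85.5) and from 63.4 to 169 (median 110.3) (adjusted p = 0.792). *Hspb1* was between 0.938 and 229.5 in spinal GFP-positive and between 2.16 and 254 in spinal GFP-negative samples, with both fractions of culture 4 the highest of their groups and both fractions of culture 3 the lowest (adjusted p = 0.933). *Hsph1* had medians of 17.5 and 12.1 (adjusted p = 0.657).

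Whether the fraction difference depended on the culture was tested as an interaction. An unadjusted limma p under 0.05 was reached by 14 of 85 members and by 1830 of all 22179 genes. After adjustment no member passed, while 0.487% of all genes were called. The nearest were *Hsph1*, whose fraction difference was -1.03 in oculomotor and 0.36 in spinal cultures (interaction -1.39 ± 0.36, adjusted p = 0.0996), and *Hspb1*, with -4.64 and 0.39 (interaction -5.03 ± 1.34, adjusted p = 0.113). *Hspb3* followed (adjusted p = 0.118), with fitted differences of 2.10 and -0.24 that depend on the pseudocount of 1. With the block on pairs 5 members were called, all with a more negative difference in the oculomotor cultures, against 2.71% of all genes (1.52% negative). These were *Hspb1* (adjusted p = 0.00113), *Hspb8* (-2.40 ± 0.37, adjusted p = 0.00491), *Dnajc15* (-1.54 ± 0.28, adjusted p = 0.0107), *Hspbap1* (adjusted p = 0.0366) and *Hsph1* (adjusted p = 0.0368). Leaving out spinal culture 4, without a block, 1.11% of all genes and the members *Hspb1* (-5.13 ± 1.12, adjusted p = 0.0214) and *Hsph1* (-1.51 ± 0.37, adjusted p = 0.045) passed. The difference in *Hspe1* was -2.06 in oculomotor and -0.60 in spinal cultures, and the interaction did not pass (adjusted p = 0.342).

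The comparison at the centre of the study, oculomotor with spinal GFP-positive cells, gave no chaperone gene past the threshold. The fit of these 12 samples tested 84 members and 19240 genes in all. An unadjusted limma p under 0.05 was reached by 10 members and by 2096 of all genes. At an adjusted p under 0.05, limma called 0.743% of all genes and no member. The study's own test of these groups, with DESeq2 at the same threshold, called more genes, and its list is not compared here. The lack of calls among members therefore holds for the test used here. *Hsph1* came nearest, and ran from 4.28 to 9.85 (median 6.27) in oculomotor and from 9.36 to 24.3 (median 17.5) in spinal samples. All but 1 of the spinal values lay above the oculomotor range, the exception being the library labelled spinal GFP-positive replicate 4 at 9.36. The log2 difference was -1.21 ± 0.28 (adjusted p = 0.076), and without that library the adjusted p was 0.0458. *Hspb1* ran from 0 to 6.5 (median 1.71) and from 0.938 to 229.5 (median 26.7), with the spinal replicate 3 inside the oculomotor range (-3.56 ± 0.97, adjusted p = 0.139, and -2.95 ± 0.89, adjusted p = 0.198 without spinal replicate 4). *Bag5*, an exchange factor for HSP70, ran from 13.5 to 37.1 (median 32.8) and from 4.18 to 16.7 (median 12.5). Its oculomotor mean was 2.44 times the spinal one, with ranges that overlapped (1.24 ± 0.35, adjusted p = 0.148, and 1.00 ± 0.30, adjusted p = 0.186 without spinal replicate 4). *Hspb3* had 141 reads in the oculomotor and 1 read in the spinal samples, with an adjusted p of 0.159.

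These 3 of the nearest genes, *Hsph1*, *Hspb3* and *Bag5*, passed when the comparison was taken from the fit of all 24 samples, in which 1.69% of all genes were called, with adjusted p values of 0.0102, 0.0129 and 0.025. No member had groups that did not overlap, against 1.72% of all genes, and the median log2 difference was -0.06 over the members and -0.03 over all genes. For the most abundant members the intervals were wide. *Hsp90aa1* ran from 761 to 1813 (median 832) in oculomotor and from 231 to 1328 (median 436) in spinal GFP-positive samples, with a log2 interval of -0.12 to 2.00. The interval was -0.90 to 0.63 for *Hspa8*, -0.42 to 0.65 for *Hspa5* and -0.82 to 0.64 for *Cct2*. *Dnajb1* had the narrowest of these intervals, -0.40 to 0.46. The CCT subunits split evenly, with 4 of 8 estimates above 0. *Mnx1* (Hb9, the reporter gene of the spinal line) and *Phox2a* (overexpressed in the oculomotor line) were called in this fit, with log2 differences of -5.02 and 3.47. Both are tied to the lines and the sort, so these calls do not show what chaperone difference the fit could find.

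Between the GFP-negative fractions 1 of 85 members was called, as higher in the oculomotor samples, against 1.28% of all genes (0.681% higher). *Hsp90aa1*, the stress-inducible cytosolic HSP90 (chr12:110690605-110702728, minus strand), ran from 987 to 2559 (median 1609) in oculomotor and from 135 to 1385 (median 232) in spinal samples. Spinal replicate 4, at 1385, overlapped the oculomotor range, while the other 5 lay below it. The oculomotor mean was 3.68 times the spinal one (6.05 times without spinal replicate 4), with a log2 difference of 2.32 ± 0.52 (adjusted p = 0.0239). The call was lost in 6 of 12 fits without 1 library (oculomotor replicate 1, 3 or 4 or spinal replicate 1, 2 or 6, adjusted p at most 0.0693), and the adjusted p was 0.00171 without spinal replicate 4. Unscaled RPKM gave 0.0686 and a fit of these 2 groups alone 0.112, both with the same direction. Without scaling, the calls over all genes were 91 higher and 122 lower, against 151 and 133 with it.

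**Figure D5:**
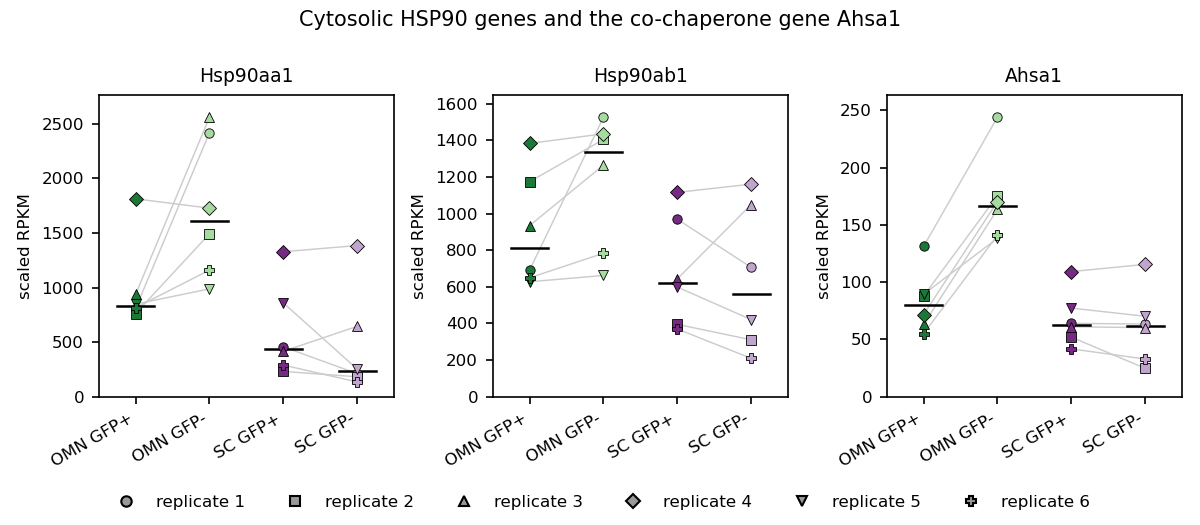
Scaled RPKM (linear axes from 0) of the cytosolic HSP90 genes *Hsp90aa1* and *Hsp90ab1* and of the HSP90 activator gene *Ahsa1* in the 4 groups, 1 symbol per replicate number, with grey lines joining the 2 fractions of a culture and bars at the group medians. Oculomotor GFP-negative samples are the highest group for all 3 genes by median, and both fractions of spinal culture 4 lie at the top of the spinal samples.

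The companion gene *Hsp90ab1*, the constitutive cytosolic HSP90, ran from 662 to 1526 (median 1335) in oculomotor and from 209.5 to 1161 (median 563) in spinal GFP-negative samples, with overlap (1.07 ± 0.44, adjusted p = 0.299). *Ahsa1*, which activates the HSP90 ATPase and is not a member, ran from 138 to 244 (median 167) and from 24.7 to 115 (median 61.8). These groups were apart, and it passed here (1.62 ± 0.31, adjusted p = 0.00874) and between the oculomotor fractions (-1.07 ± 0.31, adjusted p = 0.0362). *Dnajb3*, a testis-enriched DNAJ gene, was the 1 member whose GFP-negative groups did not overlap, against 1.55% of all genes. It ran from 0 to 0.876 (median 0.284) in oculomotor and from 1.25 to 4.08 (median 2.89) in spinal samples (adjusted p = 0.0526). It passed without spinal GFP-negative replicate 4 (adjusted p = 0.0265) and in 6 of 12 other alternatives, over which the adjusted p ran from 0.00599 to 0.399. The CCT subunits had 7 of 8 estimates above 0 with a median of 0.43, and none passed. The pluripotency marker *Tdgf1* was higher in the oculomotor samples and 3 of 5 endoderm markers lower, and their part in these values was not tested.

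Summed over all 85 members, the chaperone level was highest in the oculomotor GFP-negative fraction, where it ran from 6249.5 to 7869 (median 7168) scaled RPKM. It was from 4351 to 5352 (median 4580.0) in oculomotor GFP-positive, from 3314 to 5463 (median 4219) in spinal GFP-positive and from 3633 to 5547 (median 4124) in spinal GFP-negative samples. The oculomotor GFP-negative samples lay above all others after scaling. In the deposited RPKM they overlapped the rest, from 4735 to 8772 (median 7574) against up to 5924 in oculomotor GFP-positive, 6413 in spinal GFP-positive and 6929.9 in spinal GFP-negative samples. The sum is dominated by the cytosolic HSP90 genes and *Hspa8*, and the HSP90 family alone summed from 1874 to 4088 (median 3214) in oculomotor GFP-negative and from 1556 to 3247 (median 1751) in GFP-positive samples, with overlap. The 8 mitochondrial members summed from 713 to 1453 (median 964) and from 229.6 to 478 (median 323), without overlap. A large part of this sum was *Hspe1* and *Hspd1*, both called lower above. This pair alone summed from 502 to 871 (median 667) in oculomotor GFP-negative and from 142 to 265 (median 176) in GFP-positive samples.

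Several members of known role, abundant or not, did not pass in the main test of any comparison. *Dnaja1*, a cytosolic co-chaperone of HSP70, had medians of 51.6 and 38.0 in oculomotor and 47.4 and 41.6 in spinal fractions, GFP-positive first. *Bag1*, an HSP70 exchange factor linked to the proteasome, had medians of 128, 107, 112 and 123 in that order. *Dnajb9*, an ER co-chaperone, had medians of 11.7, 11.6, 14.5 and 15.4. The lowest adjusted p of these 3 genes over the 5 comparisons was 0.42, and the ranges of all 4 groups overlapped for each. The neuronal *Dnajb2* had medians of 5.49 and 3.58 in the spinal fractions (adjusted p = 0.831). *Dnajc5* had 27.0 and 18.7 there (adjusted p = 0.653), and *Dnajc6* had 1.3 and 0.478 (adjusted p = 0.358). *Bag3*, whose protein pairs with HSPB8, ran from 0.309 to 7.51 (median 3.74) in spinal GFP-positive and from 3.69 to 19.5 (median 9.27) in spinal GFP-negative samples, with overlap (adjusted p = 0.305).

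Replicates 5 and 6, sequenced more deeply, differed from replicates 1 to 4 across the table, with 24.1% of all genes called and 20 members higher and 8 lower. *Hspa2* (log2 difference 2.51), *Hspb11* (2.32), *Dnajb12* (2.17), *Dnajc12* (2.04) and *Dnajc19* (1.85) were the members with the widest excess in replicates 5 and 6. *Hspbp1* (-1.44), *Bag6* (-1.31) and *Bag3* (-1.24) were the widest in the other direction. Each group held 4 samples of the first and 2 of the second kind, so the sets are balanced over the comparisons. With the set as a covariate, an alternative added after seeing the data, 19 members were called between the oculomotor fractions, the 13 among them, against 11.3% of all genes.

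Of the co-factors outside the symbol rule, *Ahsa1* was the 1 called of 17 HSP90 co-chaperones, and of 4 further mitochondrial chaperones the disaggregase gene *Clpb* was called, between the GFP-positive groups. *Clpb* ran from 5.17 to 9.76 (median 6.53) in oculomotor and from 1.65 to 2.68 (median 2.12) in spinal samples, without overlap (1.28 ± 0.25, adjusted p = 0.0299). None of the 6 HSP70 co-factors, 9 prefoldin and *Tcp1* genes, 6 genes listed under heat shock factors and 17 ER chaperone and unfolded protein response genes passed in any of the 5 comparisons. *Hsf1*, the main activator of the heat shock response, had medians of 5.27 and 10.2 in the oculomotor and 10.6 and 7.66 in the spinal fractions, GFP-positive first. *Xbp1*, a transcription factor of the unfolded protein response, had medians of 10.3, 13.1, 12.0 and 24.0 in the same order.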

How the data were processed

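The authors sorted GFP-positive and GFP-negative cells, made SMART-seq2 libraries without molecular identifiers or strand marks, aligned reads to mm10 with HISAT2 2.0.3 and counted them with rpkmforgenes. They deposited 1 table of RPKM values (22889 genes, 24 samples), and the annotation is not given in the sources used here. Here each library was divided by its median ratio to the geometric mean over the 9337 genes above 0 in all samples (factors 0.673 to 1.335), and log2(scaled RPKM + 1) was tested with limma 3.58.1 (R 4.3.3, trend) on genes above 0 in at least 2 samples, with Benjamini-Hochberg adjustment over all genes tested and a threshold of 0.05. The GFP-positive comparison was fitted on its 12 samples and the others on all 24. Because RPKM is not a count, no count model was used as the main test. Within a library 95.9% to 97.9% of low values were whole multiples of 1 read within 2%, which gave the depths, and floors cover counting error only. On data simulated for the GFP-positive comparison over 19240 genes, 110 of 200 changed genes were recovered. All 200 were drawn from well-expressed genes and given the same large increase, so smaller changes and fainter genes were not covered.

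Fractions with the same replicate number deviated together from their group means over 11845 genes. The correlation was 0.39 to 0.73 in oculomotor and 0.44 to 0.65 in spinal cultures. They were treated as pairs where a block is named, although the labels do not state it. Spinal GFP-positive replicate 6 correlated best with GFP-negative replicate 5, against 0.565 with its own number. Across cultures the correlation ran from -0.18 to 0.71 and was under 0.1 for replicates 1 and 4, so these numbers were not taken as pairs. Members, lists and tests were chosen with earlier results of these data known. Named genes were the members past the threshold in each comparison, members chosen for their role, the 10 with the highest mean, those with the widest or narrowest spread within groups, and listed genes outside the symbol rule that passed. Other genes, such as *Bag5*, *Hspb3* outside the oculomotor fractions, *Dnajb3*, *Hsf1* and *Xbp1*, were named after their values were seen. Alternatives were another pseudocount, other filters, no scaling, quantile normalization, sample weights, the block, replicates 1 to 4, leaving out spinal GFP-negative replicates 2 and 4, other sample sets and each library left out. Promoters came from RefSeq (GRCm38.p6), in which 70 members had an entry, and gene positions from a GRCm38 annotation. Values, counts and figures were made with Python 3.11.15, numpy 2.4.6, pandas 2.3.3 and matplotlib 3.10.9.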

Additional observations from a re-analysis of the deposited data

Results flagged for a closer look

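In 7 of 107 groups of 6 samples, 1 sample stood apart from the other 5 by more than Dixon's 95% critical value. The usual rate of about 1 in 20 groups does not apply here. A sample above 0 beside 5 at 0 is always flagged, and the genes were those called or named in the comparisons. In oculomotor GFP-positive samples these were *Hsp90aa1* in replicate 4, high at 1813 scaled RPKM, *Dnajc22* in replicate 1 at 0.686 and *Hspb2* in replicate 1 at 0.217, the last with the other 5 samples at 0. In spinal GFP-positive samples *Hspb3* was 0.234 in replicate 5, from 1 read, with the other 5 at 0. The remaining 3 belonged to spinal culture 4. *Hspa12a* was low at 4.66 in the library labelled spinal GFP-positive replicate 4, whose neuron marker sum was 70.8. *Hspbap1* was 13.1 there and 8.37 in the GFP-negative fraction of the same culture, against group medians of 3.43 and 2.26.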

How the results depend on the processing

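The number of members called (adjusted p under 0.05, limma) moved as follows, with the share of all genes called in parentheses. Between the oculomotor fractions it went from 13 (7.78%) to 21 with sample weights (18.6%), 4 in replicates 1 to 4 (2.56%) and 9 to 14 with each library left out. Between the spinal fractions it went from 2 (1.45%) to 1 with weights (2.72%), 0 in replicates 1 to 4 (0%), 0 with the 2 groups alone (0.0192%) and 0 to 3 with each library left out. For GFP-positive cells it went from 0 (0.743%) to 2 with weights (1.28%), 3 in the fit of all 24 samples (1.69%) and 0 to 1 with each library left out, the 1 arising without spinal replicate 3 or 4. For GFP-negative cells it went from 1 (1.28%) to 0 without scaling (0.96%), 0 with quantile normalization (1.14%), 0 in replicates 1 to 4 (0.229%), 2 with a mean of at least 1 RPKM (2.25%), 3 with weights (4.19%), 3 with the replicate set as a covariate (2.42%), 2 without spinal GFP-negative replicates 2 and 4 (2.37%), 2 without spinal culture 4 (3.42%) and 0 to 2 with each library left out, the 2 arising without spinal replicate 4. For the interaction it went from 0 (0.487%) to 3 with weights (1.25%), 3 without those 2 spinal libraries (1.43%), 2 without spinal culture 4 (1.11%) and 0 to 1 with each library left out, the 1 arising without oculomotor GFP-positive replicate 4, spinal GFP-positive replicate 3 or spinal GFP-negative replicate 4.

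With the block on pairs, 23 members (18.4% of all genes) were called between the oculomotor fractions (22 without scaling, 25 without the 2 spinal libraries and 22 without spinal culture 4), 2 between the spinal fractions (3.72%; 8 without the 2 spinal libraries and 7 without spinal culture 4) and 5 in the interaction (2.71%; 8 without scaling, 3 without the 2 spinal libraries and 4 without spinal culture 4). A block on the replicate number, which was not taken as a pairing across cultures, gave 1 (*Bag5*; 0.431% of all genes) for GFP-positive and 5 (*Cct5*, *Cct7*, *Dnajb3*, *Dnajc8* and *Hsp90aa1*; 3.85%) for GFP-negative cells. Not every sample correlated best with its own number across cultures. The cause of these shifts was not tested. The variants combining the block with another choice, the replicate set and the removal of spinal culture 4 were chosen after seeing the data. Of the alternatives for single named genes, 931 kept their side of the threshold, 103 gained a call, 79 lost one and 0 changed sign. Genes near 1 RPKM, such as *Hspb2* and *Hspb3*, rest on few reads in the shallowest libraries.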
